A study of Rattus norvegicus with 40 samples.

Results

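The choroid plexus content of rat hippocampal samples was described by Ttr, the transcript of transthyretin, which the choroid plexus epithelium makes in large amounts. All 40 arrays of a study of developmental lead exposure were ranked by their log2 Ttr value. The 10 arrays of highest Ttr (the high set) and the 10 of lowest Ttr (the low set) were set against each other, so 20 of the 40 arrays belong to a set, and the other 20, of rank 11 to 30, are called the middle arrays. Because the sets were chosen by Ttr, every difference between them is a description and carries no test.

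The choroid plexus is a fringe of tissue in the brain ventricles, attached along the border of the hippocampus, and so can come along in a hippocampal dissection. Its epithelial cells secrete cerebrospinal fluid through ion channels, carbonic anhydrases, bicarbonate transporters and water channels, are sealed by claudins, and supply the brain with carriers and hormones such as transthyretin, which carries thyroxine and the retinol-binding protein. Ttr, Kl (klotho, a co-receptor of fibroblast growth factor 23 that is also shed as a hormone), Folr1 (the folate receptor that moves folate into the fluid) and Kcnj13 (the potassium channel Kir7.1) mark these cells in brain.

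The rats were unexposed (0 ppm) or ate chow with 250 or 750 ppm lead acetate. In the perinatal groups the mothers ate this chow from 10 days before mating until the pups were weaned. In the postnatal groups lead was given from birth to postnatal day 45, and all rats were killed at postnatal day 55. With a control group for each sex label there were 10 groups of 4 rats: male and female controls, and males and females exposed to either dose in either window. Nothing in the labels tells litters apart, and p-values therefore measure only the spread between these samples, which may share litters. Total RNA of the hippocampus (100 ng) was put on 1 Affymetrix array per rat, giving log2 values for 29214 probe sets. Array medians lay between 6.96 and 7.06.

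Before any comparison, 6 arrays stood apart. Eif2s3, an X-linked translation factor gene, measured 11.15 to 11.42 in the exposed males and 11.62 to 11.77 in the exposed females. The array labelled male control replicate 4 was at the female level, and those labelled female control replicates 1 and 3 were at the male level, so these 3 controls went against their sex labels. The arrays of males exposed perinatally to 250 ppm, replicates 1 and 3, and to 750 ppm, replicate 1, had a flattened range of values: their slope against the mean array fell short of 1 by 0.019 to 0.033, and no other array fell short by more than 0.013. Of these 6 arrays, female control replicate 1 and the 750 ppm male lie in the low set, none lies in the high set, and the other 4 are middle arrays. The set separation, the slopes and the exposure contrasts are also given without them.

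Promoters are shown for 3 genes that differed between the sets by over 4 log2 units: the markers Kl and Kcnj13, and Mfrp, a membrane frizzled-related protein that is in none of the choroid plexus lists. They are RefSeq's 250 bases before to 50 bases after the gene start in build GRCr8, at chr12:5325753-5326052 on the plus strand for Kl, chr9:95518937-95519236 on the minus strand for Kcnj13 and chr8:53342284-53342583 on the plus strand for Mfrp. Capitals mark a match to TAATCC, the core bound by homeobox factors of the Otx2 type, on either strand. Otx2 is a homeobox factor of choroid plexus development.
Kl: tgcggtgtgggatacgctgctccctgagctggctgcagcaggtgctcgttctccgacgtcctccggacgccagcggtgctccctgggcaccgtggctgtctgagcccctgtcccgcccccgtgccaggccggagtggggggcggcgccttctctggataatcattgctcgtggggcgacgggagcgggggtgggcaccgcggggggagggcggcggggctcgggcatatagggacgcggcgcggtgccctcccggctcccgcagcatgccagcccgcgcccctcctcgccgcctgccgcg
Kcnj13: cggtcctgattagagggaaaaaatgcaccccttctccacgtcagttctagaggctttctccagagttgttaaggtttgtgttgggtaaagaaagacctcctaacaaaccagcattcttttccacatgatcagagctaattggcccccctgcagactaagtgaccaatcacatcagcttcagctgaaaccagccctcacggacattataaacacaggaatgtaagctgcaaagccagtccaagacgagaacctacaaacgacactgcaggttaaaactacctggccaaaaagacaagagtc
Mfrp: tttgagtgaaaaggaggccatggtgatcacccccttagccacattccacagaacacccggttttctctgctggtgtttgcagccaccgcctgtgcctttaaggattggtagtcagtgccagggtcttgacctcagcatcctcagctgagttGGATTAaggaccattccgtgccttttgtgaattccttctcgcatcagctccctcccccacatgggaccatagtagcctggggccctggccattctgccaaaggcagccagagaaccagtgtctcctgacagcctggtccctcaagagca
Mfrp held 1 match, on the strand opposite to the one printed, and Kl and Kcnj13 held none. Of the 45 choroid plexus list genes with a promoter in the table, 4 (8.89%) held TAATCC, beside 1952 of all 27457 promoters (7.11%). The forkhead core GTAAACA was in 1 of the 45 (2.22%), in 3 of 16 genes of the ependyma and motile cilia list (18.8%) and in 3.76% of all promoters. Both motifs were searched on both strands and counted separately, overlapping or not. A match is not a binding site, and no match says only that these letters are not in the window.

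Ttr spanned 5.86 log2 units over the 40 arrays. In the high set it ranged from 13.33 to 13.55 (median 13.40) and in the low set from 7.69 to 9.87 (median 9.35). At the edges of the sets, rank 10 measured 13.33 against 13.29 at rank 11, and rank 30 measured 10.03 against 9.87 at rank 31. The upper edge therefore lies on a plateau, where 19 arrays were at 13 or above. The largest step between neighbouring arrays, 1.28, ran from 12.34 to 11.06 and left 25 arrays above it and 15 below.

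**Figure D1:**
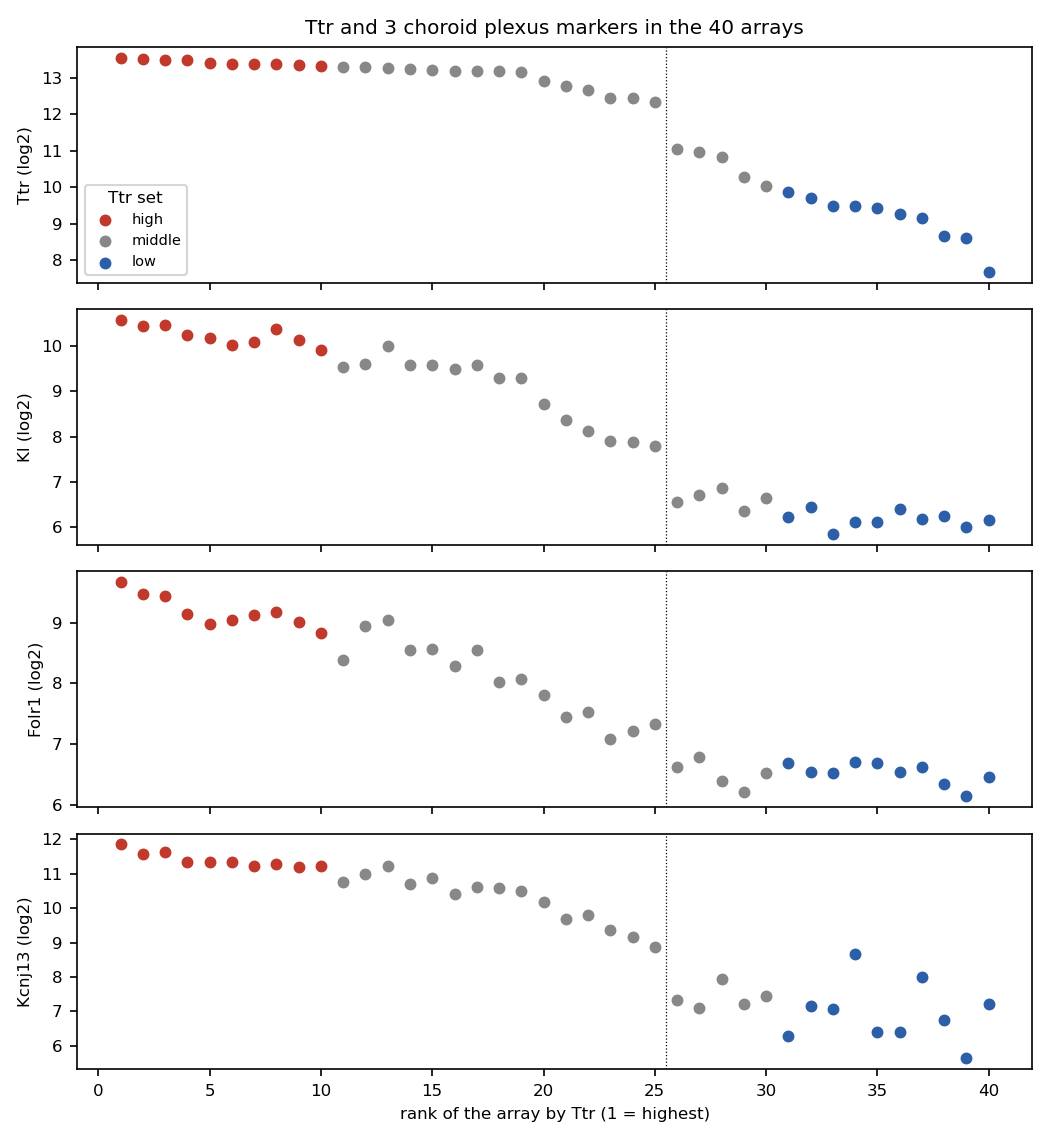
Log2 values of Ttr, Kl, Folr1 and Kcnj13 in each of the 40 arrays, ordered by Ttr from rank 1 (highest). Red points are the high set, blue points the low set, grey points the 20 middle arrays, and the dotted line is the 1.28 log2 step between ranks 25 and 26, across which none of the 4 genes overlaps.

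The 3 other markers went with Ttr. Kl ranged from 9.92 to 10.58 in the high set (median 10.22) and from 5.84 to 6.44 in the low set (median 6.16), a difference of 4.08 log2 (SD 0.21 and 0.18, n = 10 each). Folr1 ranged from 8.83 to 9.67 (median 9.14) and from 6.14 to 6.71 (median 6.54), a difference of 2.66. Kcnj13 ranged from 11.19 to 11.86 (median 11.34) and from 5.64 to 8.68 (median 6.91), a difference of 4.44. The sets did not overlap for any of them. The low set's medians of these 3 markers lie below the array medians, where array signals level off, so differences there may be understated and no linear fold is given. In bulk tissue fewer cells of a type and less RNA per cell cannot be told apart, so the label of the sets as choroid plexus content rests on these markers moving together.

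The markers also followed Ttr outside the extremes, but not along a line. Below the step Kl lay between 5.84 and 6.86 and above it at 7.78 or more. Folr1 was at most 6.79 below and at least 7.08 above, and Kcnj13 at most 8.68 below and at least 8.87 above. In all, 15 of 14506 genes had every value of the 25 arrays above the step over all values of the 15 below it. The step was placed by Ttr, so this count is a description. Among the 19 arrays of Ttr at 13 or above, Ttr itself spanned 0.38 while Kl spanned 1.29, from 9.29 to 10.58. At the other end Ttr still spanned 2.18 within the low set, where Kl spanned 0.60.

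Correlations with Ttr are given as an order of likeness over 40 arrays and not as a test. Because the arrays fall on either side of the step, the values within each side are given too for the markers and Clic6. For Kl, Pearson's r was 0.94 over all arrays, 0.98 over the 25 above the step and 0.69 over the 15 below. Kcnj13 gave 0.93, 0.98 and 0.28, and Folr1 gave 0.88, 0.94 and 0.31. Clic6, a chloride intracellular channel protein, had the highest Pearson's r with Ttr of all genes over the 40 arrays at 0.96, with 0.96 above the step and 0.79 below it. Above the step Kl, Kcnj13 and Mfrp (0.98 each) and Slc4a5 and Sostdc1 (0.97 each) were among the genes with a higher r than Clic6. By Spearman's rho over the 40 arrays Slc4a5 (0.979) was just above Clic6 (0.978). The next by Pearson's r over the 40 arrays were Mfrp, F5, Kl, Slc4a5, Kcnj13, Sostdc1, Enpp2, Cldn2 and Folr1, and the list of the 20 nearest ended with Ace, Aqp1, Mdk, Tmem72, Prlr, Pla2g5, Trpm3, Slc4a2, Abca4 and Kcne2. Over the 40 arrays the r of these 20 ran from 0.83 to 0.96. Below the step it was near 0 for some, such as Tmem72 (-0.05), Ace (-0.01) and Aqp1 (0.11). It was higher there for others, such as Slc4a5 (0.72) and F5 (0.62). All points share the tissue, the platform and the normalisation.

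The genes that separated the sets were few and ran 1 way. Of 29214 probe sets, 55 (0.188%) had all 10 values of the high set above all 10 of the low set with a difference of means of at least 1 log2, and 0 (0%) lay below by as much. Without the minimum difference, 189 (0.647%) lay all above and 2 (0.00685%) all below. Those 2 were Erbb4, a neuregulin receptor, lower in the high set by 0.16, and Ap2a1, an endocytic adaptor subunit, lower by 0.06. The 55 probe sets gave 43 genes besides Ttr, of which 17 differed by at least 2 log2 and 6 by at least 4. The median difference over all genes was -0.01. Without the mismatched controls 53 probe sets separated the sets, and without the flattened arrays 54. These shares describe the choice of arrays and support nothing by themselves.

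**Figure D2:**
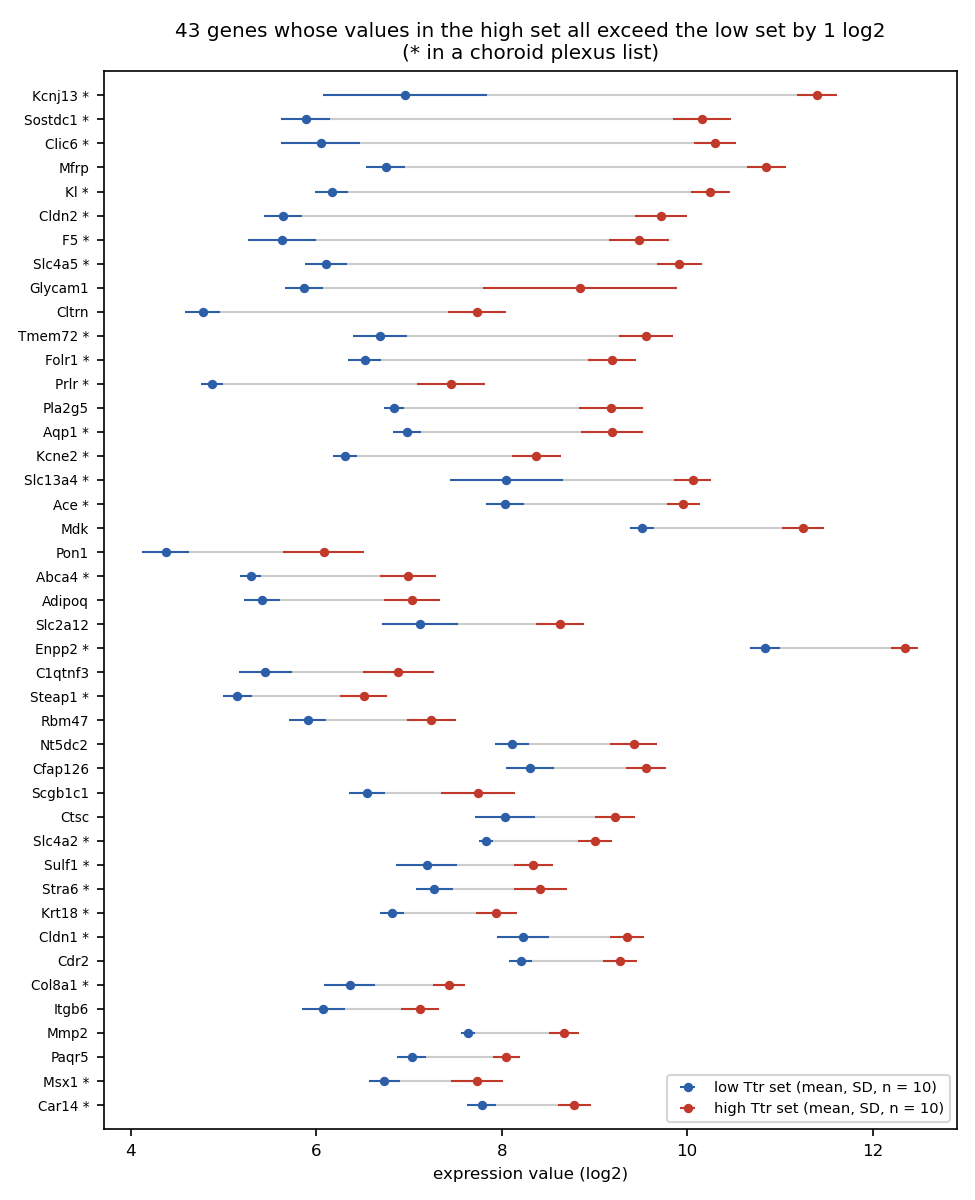
Mean log2 value and SD (n = 10 arrays each) in the high set (red) and the low set (blue) for the 43 genes other than Ttr that separated the sets by at least 1 log2, ordered by the difference. The differences run from 1.001 (Car14) to 4.44 (Kcnj13), and an asterisk marks the 25 genes of the choroid plexus lists.

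Choroid plexus genes made up 25 of the 43. Over the 7 choroid plexus lists, 61 of 68 genes were measured. Without Ttr, 33 of 60 lay all above, 25 of them by at least 1 log2, beside 136 and 43 of all 14505 genes. Of the 60, 54 had a higher mean in the high set, a share not counted over all genes. The median difference was 0.61, against -0.01 over all genes. The lists group the genes by role.

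Among secreted proteins and carriers, 4 of 11 separated the sets by at least 1 log2. Sostdc1, a secreted antagonist of BMP and Wnt signals, was at 10.16 ± 0.32 in the high set and 5.89 ± 0.27 in the low set (SD, n = 10 each). F5, coagulation factor V, differed by 3.85, Enpp2, the enzyme autotaxin, by 1.51, and Sulf1, an extracellular heparan sulfatase, by 1.15. Enpp2 was bright in both sets (12.35 and 10.84), unlike most of the others. Igfbp2 (1.41) and Igf2 (1.39), the binding protein and growth factor also made by meninges, differed in mean while their sets overlapped, with SDs of 0.62 and 0.69 in the low set. Mia (-0.04), a secreted cartilage protein, did not follow.

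Among receptors and surface proteins, 7 of 10 separated the sets. Beside Kl and Folr1 these were Tmem72 (2.87), Prlr, the prolactin receptor (2.58), Ace, angiotensin-converting enzyme (1.92), Steap1, a metalloreductase (1.36), and Stra6, the receptor that takes up retinol from its binding protein (1.14). Prlr ranged from 6.83 to 8.06 in the high set and from 4.67 to 5.05 in the low set. Htr2c, a serotonin receptor also present in hippocampal neurons, differed by 0.51 with overlap. Lrp2, the endocytic receptor megalin, differed by -0.07.

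Among ion and water transport genes, 7 of 11 separated the sets. Clic6 was at 10.30 ± 0.23 and 6.05 ± 0.42, and Slc4a5, a sodium bicarbonate cotransporter, at 9.92 ± 0.24 and 6.10 ± 0.23 (SD, n = 10 each). The water channel Aqp1 differed by 2.21, the potassium channel subunit Kcne2 by 2.066, the anion exchanger Slc4a2 by 1.18 and the carbonic anhydrase Car14 by 1.001. Fxyd1, a regulator of the sodium pump, lay all above by 0.32. Atp1b1, a subunit of the sodium pump that neurons also hold, differed by less than 0.01 in size.

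Solute transporters, junction genes, transcription factors and stroma genes follow. Of 8 solute transporters, 2 separated: Slc13a4, a sulfate transporter (2.01), and Abca4, a retinoid flippase (1.70). Of 11 junction and cytoskeleton genes, 3 separated: Cldn2, a claudin of leaky epithelia (4.08), Krt18, a keratin (1.12), and Cldn1 (1.12). With no minimum difference, 8 of the 11 lay all above. Of 4 transcription factors measured, Msx1 separated (1.01), and Lmx1a lay all above by 0.38. Of 5 genes of the stroma and its fenestrated vessels, Col8a1, a collagen, separated (1.07). Plvap, the diaphragm protein of fenestrated endothelium, differed by 0.07.

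The other 18 separating genes were in no choroid plexus list. Mfrp was at 10.85 ± 0.21 and 6.75 ± 0.21 (SD, n = 10 each), a difference of 4.10. Glycam1, a mucin-like glycoprotein, ranged from 7.73 to 10.80 in the high set, a wider spread (SD 1.05) than any other of the 43 genes showed there, and from 5.48 to 6.22 in the low set. Cltrn, collectrin, differed by 2.96, Pla2g5, a secreted phospholipase, by 2.34, and Mdk, the growth factor midkine, by 1.74. Pon1, paraoxonase, differed by 1.70, Adipoq, adiponectin, by 1.62, and C1qtnf3, a protein related to adiponectin, by 1.43. Cfap126, a protein of motile cilia, differed by 1.25. The remaining 9 were Slc2a12, Rbm47, Nt5dc2, Scgb1c1, Ctsc, Cdr2, Itgb6, Mmp2 and Paqr5, which differed by 1.02 to 1.51.

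Cells that adjoin the choroid plexus were followed by their own lists. Of 21 measured genes of ependyma and motile cilia, 5 lay all above, beside 136 of all 14505 genes other than Ttr. Of the 21, 20 had a higher mean and the median difference was 0.35. After Cfap126 the largest were Efhb (0.78) and Enkur (0.59). Foxj1, the master factor of motile cilia, differed by 0.29. All 10 meningeal fibroblast genes had a higher mean in the high set (median 0.32, the largest Ogn at 0.83 and Fmod at 0.70), but none separated the sets. The mean over the meningeal list ran from 7.09 to 8.21 in the high set. All 20 endothelial and mural genes (median 0.12) and all 5 red blood cell genes (median 0.34) had a higher mean too, with no separation. The share of all genes with a higher mean was not counted, and the median difference over all genes was -0.01. Among 7 border macrophage genes the median was 0.17, led by the antigen presentation genes Cd74 (0.80), RT1-Ba (0.56) and RT1-Da (0.53), while Cd163 and Lyve1 differed by -0.11 and -0.05. The part of these neighbouring cells in the differences of single genes was not tested.

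Hippocampal cell types showed little. Medians were 0.01 for microglia, -0.01 for astrocytes, 0.03 for mature myelin, 0.00 for oligodendrocyte precursors, 0.01 for dentate granule cells, -0.04 for CA pyramidal cells and -0.05 for interneurons. No gene of these lists separated the sets. Of neighbouring brain regions, the medians were 0.00 for thalamus and habenula, -0.04 for striatum, 0.00 for hypothalamus and pituitary and -0.11 for cortex (2 genes), with Zic1, a factor of cerebellum, septum and meninges, as the largest single difference (0.58). The pineal list had a median of -0.04 and the neuronal activity list 0.04. Liver plasma protein genes had a median of -0.06. Of 12 genes of thyroid hormone and retinol handling other than Ttr, only Stra6 separated the sets, and the median was -0.02. Rbp4, the retinol-binding protein, differed by 0.05, and the deiodinases Dio2 and Dio3 by -0.18 and -0.21.

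**Figure D3:**
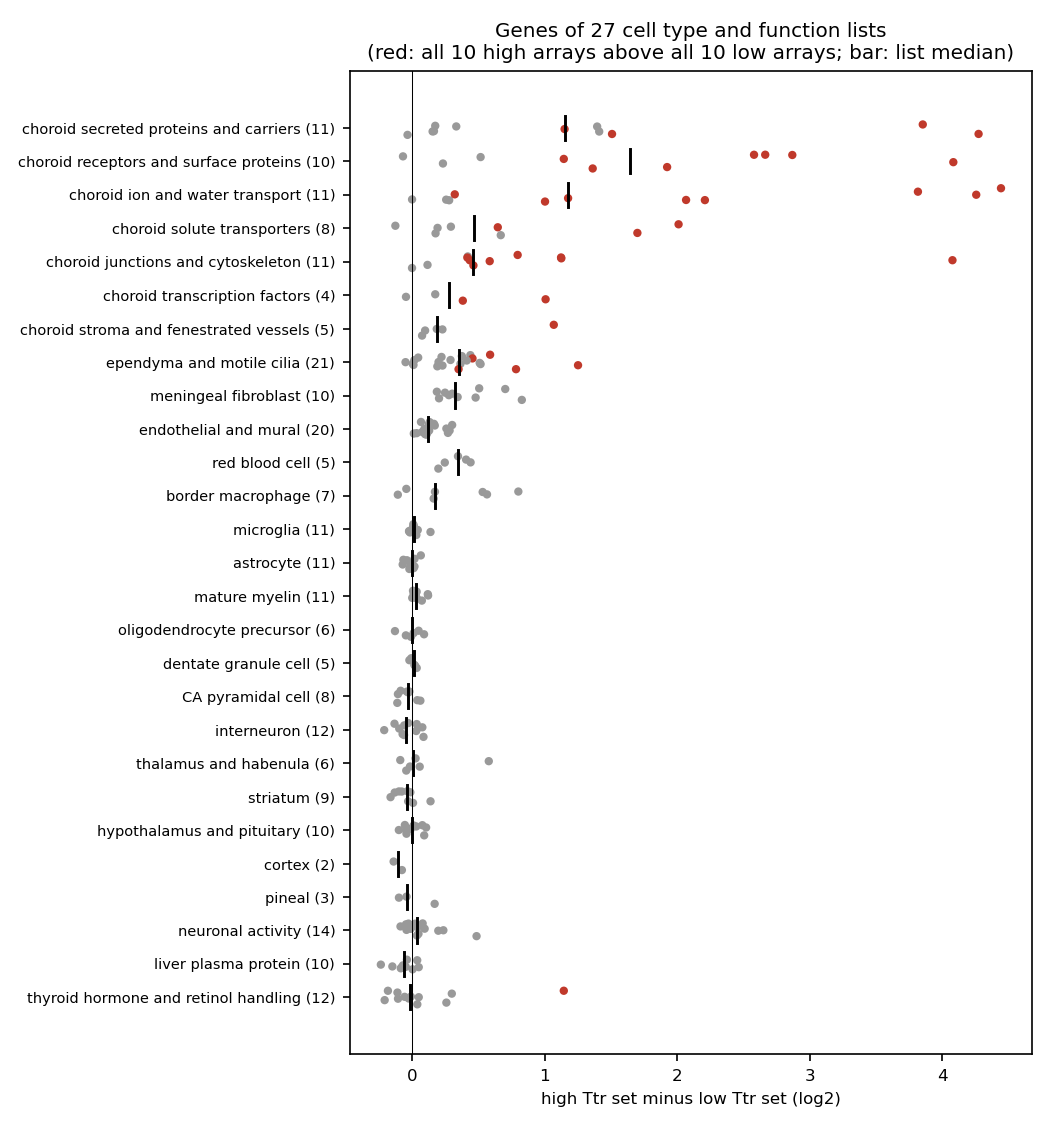
Difference of means (high set minus low set, log2) for each measured gene of the 27 lists, with the number of genes in brackets and Ttr left out. Red points lie all above (10 high arrays over 10 low arrays) and bars are list medians, which run from -0.11 (cortex) to 1.64 (choroid receptors and surface proteins).

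Genes that ran against Ttr did so weakly. The 5 lowest correlations over 40 arrays were those of Or2m12, an olfactory receptor gene (r -0.63, 4.26 in the high set and 4.498 in the low set), Vipr1, a receptor of vasoactive intestinal peptide (-0.63), Hdac4, a histone deacetylase (-0.62), Elk1, a transcription factor (-0.61), and Mical3, an actin-oxidising enzyme (-0.58). Their set means differed by -0.24 to -0.11.

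In the 20 middle arrays, which neither set used, the slope on Ttr was fitted. These arrays come from the same ranking by Ttr, so the fit is no independent check of the sets, and groups were not terms of it. Their Ttr ran from 10.03 to 13.29, and limma estimated for each of the other 29213 probe sets the slope in log2 units per log2 unit of Ttr, with Benjamini-Hochberg adjustment over all of them. Positive slopes were called for 167 probe sets (0.572%) and negative slopes for 49 (0.168%). Of the 43 separating genes, 40 were called positive, and the slope was positive for all 43. The exceptions were Pon1 (adjusted p = 0.061), Adipoq (0.092) and Col8a1 (0.36). Kcnj13 rose by 1.23 per unit of Ttr (SE 0.08, adjusted p = 1.4e-09), Kl by 1.07 (SE 0.08, adjusted p = 1.4e-08) and Folr1 by 0.72 (SE 0.07, adjusted p = 2.7e-06). Mfrp (1.12), Clic6 (1.10), Sostdc1 (1.09), Cldn2 (1.04), F5 (1.01), Slc4a5 (0.85) and Glycam1 (0.72, SE 0.15, adjusted p = 0.021) were the other positive slopes of the 10 largest, in limma's test. Without the flattened arrays Glycam1 had a slope of 0.81 and was not called (adjusted p = 0.14, limma).

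**Figure D4:**
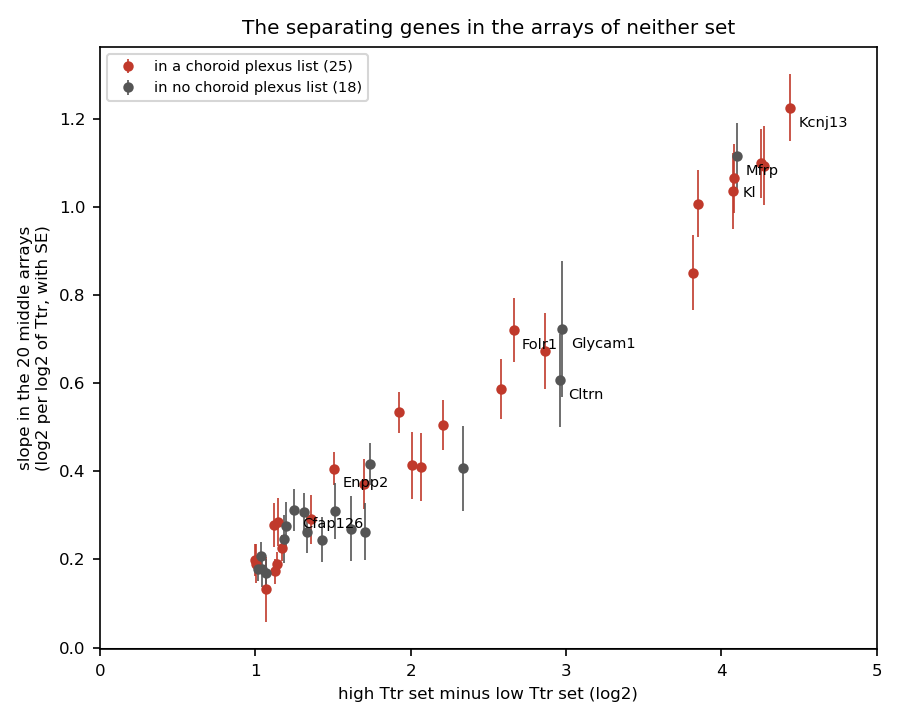
Slope in the 20 middle arrays (log2 per log2 of Ttr, with SE) against the difference between the sets (log2) for the 43 separating genes, 25 in a choroid plexus list (red) and 18 in none (grey). All 43 slopes are above 0, from 0.13 (Col8a1) to 1.23 (Kcnj13). Slopes tend to be larger where the difference between the sets is larger, but not for every gene. Mfrp (difference 4.10) has a slope of 1.12 and Sostdc1 (difference 4.27) one of 1.09. Both axes depend on Ttr.

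Of the 60 choroid plexus list genes, 3 had a negative slope at an unadjusted p under 0.05 (limma), beside 3279 of all 29213 probe sets. After adjustment, 27 of the 60 genes rose with Ttr in the middle arrays and 0 fell in limma's test. By role these were 4 of 11 secreted proteins, 7 of 10 receptors and surface proteins, 8 of 11 ion and water transport genes, 3 of 8 solute transporters, 4 of 11 junction and cytoskeleton genes, 1 of 4 transcription factors and 0 of 5 stroma genes. Slc31a1, a copper transporter that lay all above by 0.64 between the sets, rose by 0.14 (adjusted p = 0.0034, limma). Of the 21 cilia genes, 7 rose: Cfap126 (0.31), Iqcg, Enkur, Hydin, Cfap52, Ak7 and Lrrc23 (0.08 to 0.17). Stra6 rose in the list of thyroid hormone and retinol handling (0.19). In the meningeal, endothelial, red blood cell, macrophage and all neuronal and glial lists no gene was called in either direction.

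The 5 middle arrays of lowest Ttr lay below the 1.28 step, and 2 of them were flattened arrays. Without the flattened arrays (18 arrays), 81 probe sets were called positive and 0 negative in limma's test. Of the 29213 probe sets, 805 then had a negative and 818 a positive slope at an unadjusted p under 0.05 (limma). Of the separating genes 34 were then called, of the choroid plexus genes 23 and of the cilia genes 3. In the 15 middle arrays above the step, where Ttr spanned only 12.34 to 13.29, 68 probe sets were called positive and 5 negative, and 32 separating, 26 choroid plexus and 1 cilia gene were called positive. There the slopes were steeper: Kl rose by 2.18 (SE 0.11, adjusted p = 3.1e-09), Kcnj13 by 1.999 (SE 0.12, adjusted p = 2.2e-08) and Folr1 by 1.67 (SE 0.18, adjusted p = 4.8e-05), in limma's test. Over these 15 arrays Ttr thus covered less than 1 log2 unit, while Kl ran from 7.78 to 10.00 and Kcnj13 from 8.87 to 11.23.

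The 10 largest negative slopes called in the 20 middle arrays belonged to Mmp20, an enamel protease (-0.14), Prom2 (-0.13), the olfactory receptor genes Or10p22, Or6b9 and Or6c219, Gpr33-ps1, Gkn1, Batf, Otp and Myod1 (-0.13 to -0.11). None of the 10 was called without the flattened arrays. Of the 49 negative probe sets, 1 was also called negative in a fit over all 40 arrays with group means, against 150 of the 167 positive ones. That fit holds the same 20 middle arrays and the sets chosen by Ttr, so it is no independent check of either direction. Leaving out the 750 ppm perinatal male replicate 2 gave 557 negative and 422 positive calls.

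Turning to exposure, both sets drew on most groups. The high set held 3 controls and 7 exposed rats, and the low set 1 control and 9 exposed rats (Fisher's exact test, two-sided, p = 0.58, adjusted over 5 label comparisons 0.97). The sex label was male for 6 of 10 high and 2 of 10 low arrays (p = 0.17, adjusted 0.79, Fisher's exact test). Among the exposed rats of the sets, 5 of 7 in the high set and 3 of 9 in the low set were exposed postnatally (exact p = 0.31, adjusted 0.79). The dose was 750 ppm for 4 of 7 and 5 of 9, and sample numbers of the lowest range, which hold the controls and the females exposed perinatally to 750 ppm, were borne by 4 of 10 and 3 of 10 (exact p = 1.0 for both). Without the mismatched controls the adjusted values for lead, sex label and window were 0.53, 0.62 and 0.53 (Fisher's exact test). Leaving out the flattened arrays could not change the counts: in the low set a male at 750 ppm perinatal was replaced by another of the same group. Females exposed perinatally gave 5 of the 10 low arrays and 1 high array.

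Values of Ttr within most groups were far apart. Male controls measured 13.37, 10.97, 13.50 and 11.06, and female controls 8.61, 13.35, 13.28 and 13.29, the lowest being the mismatched replicate 1. The male at 11.06 (replicate 4) and the female at 13.28 (replicate 3) are the other mismatched controls. The 2 control groups thus span 8.61 to 13.50.

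The 4 groups exposed perinatally had the lowest means over all arrays (10.40 to 11.63). Males at 250 ppm measured 10.83, 12.34, 10.03 and 13.33, and males at 750 ppm 7.69, 10.29, 12.90 and 12.78. Females at 250 ppm measured 9.26, 9.71, 13.17 and 9.44, and females at 750 ppm 13.38, 12.67, 9.48 and 9.50. Each of these 4 groups overlapped the controls of its sex label. In females at 250 ppm the overlap rested on the mismatched female control replicate 1 (8.61). The other female controls, at 13.28 to 13.35, lay above all values of that group. Low values in the males at 250 ppm are those of the flattened arrays, without which that group's mean is 12.83.

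Postnatal exposure gave mostly high values with single low arrays. Males at 250 ppm measured 13.27, 13.23, 13.53 and 12.46, the narrowest group (SD 0.46). Males at 750 ppm measured 13.25, 13.38, 9.87 and 13.42. Females at 250 ppm measured 12.45, 13.17, 13.55 and 8.68, and females at 750 ppm 9.16, 13.49, 13.19 and 13.19.

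**Figure D5:**
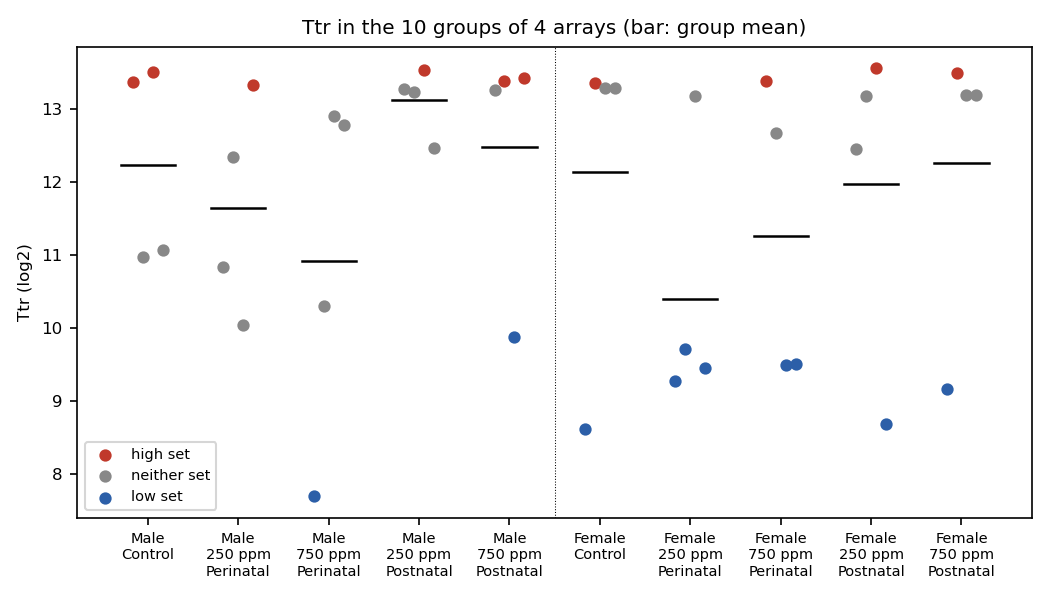
Log2 Ttr in each array by group (4 arrays a group, bars are group means), with the high set in red, the low set in blue and the arrays of neither set in grey. Group means run from 10.40 (females, 250 ppm, perinatal) to 13.12 (males, 250 ppm, postnatal), and 9 of the 10 groups span more than 2 log2 units.

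Neither Ttr nor its markers was called as different between groups. With 4 arrays a group and this spread, that does not show the groups to be alike. The limma F test over the 10 groups gave an adjusted p of 0.81 for Ttr, 0.75 for Kl, 0.69 for Folr1 and 0.79 for Kcnj13, and group membership held 17.7%, 20.4%, 22.4% and 18.6% of their sums of squares. Their residual SDs within groups were 1.90, 1.74, 1.15 and 1.98, against a median of 0.13 over all probe sets. Kcnj13 and Ttr ranked 1 and 2 of all probe sets by residual SD. Of the 20 genes with the largest residual SD, 19 were Ttr and separating genes, and the other was Tph1.

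Of the 61 choroid plexus genes, 1 was called in the F test, beside 191 of all 29214 probe sets (0.654%). An unadjusted p under 0.05 was found for 5 of the 61, and the share of all probe sets at that threshold was not counted. The called gene was Slc29a4, a monoamine transporter (adjusted p = 0.023), with group means from 8.17 in females at 250 ppm perinatal to 8.72 in males at 250 ppm postnatal. It did not separate the Ttr sets (difference 0.29) and was not called in the slope fit (adjusted p = 0.28, limma). Its F test gave an adjusted p of 0.030 without the flattened arrays and 0.042 without the mismatched controls (limma).

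In the 8 contrasts of an exposed group with the controls of its sex label, 0 of 61 choroid plexus genes were called in limma's test. The share of all probe sets called was 0.089% in males at 250 ppm perinatal, 0.0582% at 750 ppm perinatal, 0.0342% at 250 ppm postnatal and 0.0445% at 750 ppm postnatal. In females it was 0.0171%, 0.157%, 0.0171% and 0.0137% in the same order. Unadjusted p-values under 0.05 were found for 0 to 4 of the 61 genes in a contrast, with the share over all probe sets not counted. Ttr differed by -0.59, -1.31, 0.90 and 0.26 in males and by -1.73, -0.87, -0.17 and 0.13 in females, each with an SE of 1.24. Without the flattened arrays the males at 250 ppm perinatal turned from -0.59 to 0.61 and those at 750 ppm perinatal gave -0.23. Without the mismatched controls the differences were -0.98, -1.69, 0.51 and -0.13 in males and -2.92, -2.06, -1.35 and -1.06 in females, so those at 750 ppm postnatal turned sign in both sex labels. Without the flattened arrays the calls over all probe sets fell from 26 to 5 in males at 250 ppm perinatal and from 17 to 0 at 750 ppm perinatal (limma). Without the mismatched controls they went from 26 to 13, from 17 to 5 and from 10 to 5 in males at 250 and 750 ppm perinatal and 250 ppm postnatal, and from 46 to 6 in females at 750 ppm perinatal. In females at 250 ppm perinatal the 5 calls became 3 without the flattened arrays and 9 without the mismatched controls. No choroid plexus gene was called with either kind of array left out. The contrasts of 1 sex label share their controls.

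The choroid plexus genes were counted by the sign of their difference, none of which was called. In males at 250 ppm perinatal 49 of 61 had a lower mean than the controls (median difference -0.18), at 750 ppm 50 of 61 (-0.26), and in females 56 of 61 (-0.24) and 47 of 61 (-0.11). After postnatal exposure 41 and 38 of 61 had a higher mean in males at 250 and 750 ppm (0.12 and 0.07), and in females 24 and 38 (-0.04 and 0.03). Without the flattened arrays 33 of 61 were lower in males at 250 ppm perinatal (median -0.01) and 51 at 750 ppm. Without the mismatched controls 48, 51, 58 and 54 of 61 were lower in the perinatal groups in the same order. After postnatal exposure 35 and 18 were then higher in males (0.07 and -0.09), and 9 and 9 in females (-0.17 and -0.15), so 750 ppm turned sign in both. The genes of a list share their arrays and move together with Ttr, so they are not independent of each other. The medians over all probe sets lay between -0.01 and 0.02. No choroid plexus gene was called in the 4 interactions of sex label with exposure, where the smallest adjusted p of Ttr was 0.97 (limma).

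With all arrays used, adding each array's Ttr as a covariate moved most counts of exposure calls little. Among all probe sets, calls went from 26 to 25 in males at 250 ppm perinatal (25 shared), from 17 to 15 at 750 ppm (15 shared), from 10 to 9 at 250 ppm postnatal (8 shared) and from 13 to 14 at 750 ppm postnatal (12 shared). In females they went from 5 to 10 (5 shared), from 46 to 41 (39 shared), from 5 to 5 (5 shared) and from 4 to 5 (4 shared). The 1 count that so moved by over 1.5 times was that of females at 250 ppm perinatal, the group with 3 of its 4 arrays in the low set. Without the mismatched controls, the covariate took the calls at 750 ppm perinatal from 5 to 0 in males and from 6 to 4 in females (limma).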

How the data were processed

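The deposited table holds log2 expression values of 29214 probe sets in 40 hippocampal samples, which the authors made with RMA (background correction, quantile normalisation and summary of probes). The names of both RMA and Partek come per the submitters' own processing notes. Versions and settings are not given in the sources used here. RMA's quantile step acts on probes before they are summarised, so the deposited values still differ slightly between arrays, and array signals level off near the top and bottom of their range, which can narrow differences of bright probe sets such as Ttr. The number of arrays limits the precision.

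Samples were grouped by their labels. Of the probe sets, 15310 carried 1 gene symbol in the platform annotation, 323 several and 13581 none, and none of the last 2 kinds is named. Where a gene had several probe sets, that of highest mean stood for it, giving 14506 genes. Ttr had 1 probe set. Set differences, Pearson and Spearman correlations and Fisher's exact tests were computed in Python 3.11.15 (pandas 2.3.3, numpy 2.4.6, scipy 1.17.1) and figures with matplotlib 3.10.9. Group contrasts, the F test and the slope on Ttr were fitted with limma 3.58.1 in R 4.3.3, with a trend of variance on mean and Benjamini-Hochberg adjustment over all probe sets, called under 0.05. Both fits were tested on simulated data.

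The members, the 27 gene lists (251 of 292 genes measured) and the tests were chosen with earlier results of these data known. Genes were named by rule: Ttr, Kl, Folr1 and Kcnj13, the 20 of highest and 5 of lowest r with Ttr, up to 4 of each list by absolute difference, the 10 largest called slopes in each direction and choroid plexus genes called between groups. Other separating genes, list members outside this rule, Erbb4, Ap2a1, Slc29a4, Eif2s3 and the genes of the closing section were named after their values were seen. Promoters are RefSeq's (GRCr8), of which 45 of 61 measured choroid plexus genes and 16 of 21 cilia genes had 1. Alternatives were other set sizes, a ranking by the mean of Kl, Folr1 and Kcnj13, further quantile normalization, a filter on the dimmest 40% of probe sets, array weights, fits of the compared groups only, Ttr as a covariate and leaving out single arrays, the mismatched controls or the flattened arrays. The marker mean as a covariate (not used for Ttr itself, whose difference it would remove), Ttr as a covariate without the mismatched controls, and the slope in 15 arrays were added after seeing the data.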

Additional observations from a re-analysis of the deposited data

Results flagged for a closer look

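In groups of 4 rats, a single array lay far from the other 3 for 10 of the 40 pairs of a marker and a group, in 4 groups. For normally distributed values, chance alone gives about 1 such case in 20 groups. That rate does not hold here, as the arrays fall on either side of the 1.28 log2 step in Ttr, 25 above and 15 below. In each of the 4 groups the single array lay across this step from the other 3. The flags therefore do not show that such a split is rare in these data. The 4 markers move together, so the 10 are not separate cases. In females exposed perinatally to 250 ppm, replicate 3 was high: Ttr was 13.17 against 9.26 to 9.71 in the others, Kl 9.31 against 6.11 to 6.44 and Folr1 8.02 against 6.54 to 6.69. Among female controls, the mismatched replicate 1 was low: Ttr was 8.61 against 13.28 to 13.35, Kl 5.99 against 9.55 to 10.15 and Kcnj13 5.64 against 10.76 to 11.19. In males exposed postnatally to 750 ppm, replicate 3 was low: Ttr was 9.87 against 13.25 to 13.42, Kl 6.21 against 9.58 to 10.18 and Kcnj13 6.28 against 10.71 to 11.34. In females exposed postnatally to 750 ppm, replicate 1 had a Ttr of 9.16 against 13.19 to 13.49.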

How the results depend on the processing

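The 55 separating probe sets became 134 with a minimum of 0.5 log2 and 189 with none, and 45 to 59 under the other settings. No label comparison of the sets passed the threshold (adjusted p of 0.16 or more in all 35 alternatives). The choroid plexus genes called against controls stayed at 0 in every alternative, and the F test of Ttr kept an adjusted p of 0.66 to 0.89. None of the Ttr differences was called. They kept their sign in every alternative in males at 750 ppm perinatal (-1.97 to -0.23) and 250 ppm postnatal (0.48 to 1.32) and in females at 250 ppm (-2.92 to -1.33) and 750 ppm perinatal (-2.06 to -0.28), and turned in at least 1 in the other 4. Without the flattened arrays the males at 250 ppm perinatal gave 0.61. Without the mismatched controls the 750 ppm postnatal differences were -0.13 in males and -1.06 in females, and array weights gave -0.13 in these females. Single arrays left out gave -0.16 to 1.13 (males 750 ppm postnatal), -1.34 to 0.93 (females 250 ppm postnatal) and -1.05 to 1.16 (females 750 ppm postnatal).

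Positive slopes, 167 at first, numbered 81 without the flattened arrays, 439 over all 40 arrays, 68 in the 15 arrays above the step and 100 to 422 with single arrays left out. Negative slopes, 49 at first, numbered 0 without the flattened arrays (limma, 805 of 29213 at an unadjusted p under 0.05) and 77 without the mismatched controls. They numbered 26 after further quantile normalization, 22 without the dimmest 40% (fewer probe sets tested) and 29 over all 40 arrays. With the marker mean 11 were negative, in the 15 arrays 5, and with single arrays left out 4 to 557. The lowest of these ranges were without the 250 ppm perinatal male replicate 3 and the highest without the 750 ppm perinatal male replicate 2. Cilia genes called, 7 at first, numbered 3 without the flattened arrays, 12 over all 40, 1 in the 15 arrays and 3 to 8 with single arrays left out. In the 15 arrays Or10p22 (0.018), Or6b9 (0.0085) and Gpr33-ps1 (0.030) turned sign. Kl, Folr1 and Kcnj13 kept their slope call in all 26 alternatives, Mfrp, Clic6, Sostdc1, Cldn2, F5 and Slc4a5 in all 27, Glycam1 in 24 of 27 and the named negative genes in 6 to 23 of 26 or 27.

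Exposure calls over all probe sets moved with single arrays and settings: 5 to 27 in males at 250 ppm perinatal, 0 to 22 at 750 ppm perinatal, 0 to 11 at 250 ppm postnatal and 7 to 17 at 750 ppm postnatal, and in females 1 to 14, 4 to 112, 2 to 18 and 2 to 8 in the same order, against 26, 17, 10, 13, 5, 46, 5 and 4 at first. Where not stated, the cause was not tested. No paired analysis was possible because the labels give no replicate numbers: the numbers 1 to 4 used here follow the order of the samples and only name an array. Probe sets near background have compressed differences, which limits what can be said of genes such as Kl in the low set.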

Other observations

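Tph1, tryptophan hydroxylase of serotonin and melatonin synthesis in the pineal gland, was the 1 gene among the 20 of largest spread within groups that did not separate the Ttr sets. It measured 12.29 in the array labelled male control replicate 4 and between 5.004 and 7.39 in the other 39 (median 5.39). In the same array 11 of 14506 genes lay at least 2 log2 above every other array. Among them, chosen after their values were seen, were Crx, a factor of photoreceptors and pinealocytes (9.37, at most 5.75 elsewhere), the cone transducin Gnat2 (10.13, at most 6.004), the cone phosphodiesterase Pde6c (7.597, at most 4.53), Rbp3 (8.54, at most 5.06) and Neurod4 (9.21, at most 6.15). Of the pineal melatonin enzymes, Asmt measured 7.83 there (at most 7.44 elsewhere), and Aanat 7.16, inside the range of the other arrays (6.77 to 7.59). The array is of rank 26 by Ttr, just below the 1.28 step, and is 1 of the 3 whose Eif2s3 went against the sex label. The correlation of Tph1 with Ttr over 40 arrays was 0.06.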
